A study of Homo sapiens with 9 samples.

Results

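The genes described here sense double-stranded RNA (dsRNA) or belong to the interferon response that follows, and were measured in H9 cells, a long-established human embryonic stem cell line. The set was chosen by gene symbol and holds 39 genes, which 40 probe sets of the array measured, out of 29096 probe sets that are not controls. USP18 had 2 probe sets and every other gene had 1. All 9 samples were labelled day 3 and fall into 3 groups of 3 samples: cells transfected with an siRNA against TCF7L1, cells transfected with a non-silencing siRNA, and untreated cells that received no siRNA. Total RNA was measured on a whole-transcript array, and each value is a gene-level signal in linear intensity units. The sequences and doses of the siRNAs and the transfection reagent were not stated in the labels, and the group without siRNA is labelled untreated, so that siRNA and transfection as such cannot be told apart in any comparison with it. The labels do not say that the 3 samples of a group came from separate cultures, and p-values then measure only the spread between these samples.

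Double-stranded RNA, a sign of virus infection, is bound in the cytoplasm by RIG-I (DDX58), MDA5 (IFIH1) and LGP2 (DHX58) and in endosomes by TLR3. TLR7 and TLR8 bind single-stranded RNA. RIG-I and MDA5 signal through the mitochondrial adaptor MAVS and the kinase TBK1 to the transcription factors IRF3 and IRF7, which switch on interferon beta (IFNB1). Secreted interferon binds the receptor chains IFNAR1 and IFNAR2, and a complex that holds STAT2 and IRF9 then binds the interferon-stimulated response element in the promoters of interferon-induced genes. An siRNA is a short dsRNA, and sequence-independent activation of this pathway is a known concern in siRNA experiments. Embryonic stem cells are known for a weak interferon response to dsRNA and for expressing some interferon-induced genes without stimulation.

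Promoter sequence was available for 29 of the 39 genes, as windows of 250 bases before to 50 bases after a transcription start, from RefSeq on build GRCh38.p14. Each window was searched on both strands for the core of the interferon-stimulated response element, which is GAAA, 2 bases of any kind and GAAA again, and for a longer form in which CT follows. Every match of the longer form contains a match of the core. The core was found in at least 1 window of 17 of the 29 genes (58.6%) and in 20 of their 37 windows (54.1%), against 1255 of all 35116 promoter windows (3.57%). For the longer form the numbers were 10 genes (34.5%) and 12 windows (32.4%), against 96 of all windows (0.27%). Among the 14 genes with a window in the group of other interferon-induced genes, 13 held the core (92.9%). It was not found in the windows of DDX58, TLR8, MAVS, TBK1, IRF1, IRF9, STAT2, IFNB1, IFNAR1, OAS1, ADAR or IFI35, which says only that these letters are not there. Stretches of 58 bases with the core are given for 4 genes whose signal was above the array median in all 9 samples (IFITM1, BST2, ISG15 and IFI6) and for 4 whose signal was below it in all 9 (IFIT1, IFIT5, OAS3 and CXCL10), chosen among the windows that hold it. They are written 5′ to 3′ along the gene's strand with the core in capitals. In these capitals TTTC repeats are the core read on the opposite strand, and runs longer than the core are overlapping matches.
IFITM1 (chr11:313993-314050, plus strand): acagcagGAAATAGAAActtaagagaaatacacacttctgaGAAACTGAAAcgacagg
BST2 (chr19:17405724-17405781, minus strand): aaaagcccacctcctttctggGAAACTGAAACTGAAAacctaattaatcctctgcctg
ISG15 (chr1:1013363-1013420, plus strand): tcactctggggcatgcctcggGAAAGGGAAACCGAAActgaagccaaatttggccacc
IFI6 (chr1:27672315-27672372, minus strand): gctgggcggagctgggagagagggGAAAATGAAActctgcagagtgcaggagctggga
IFIT1 (chr10:89392489-89392546, plus strand): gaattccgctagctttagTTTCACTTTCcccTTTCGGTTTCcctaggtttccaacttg
IFIT5 (chr10:89414519-89414576, plus strand): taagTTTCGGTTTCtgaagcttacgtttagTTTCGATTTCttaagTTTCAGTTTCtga
OAS3 (chr12:112938307-112938364, plus strand): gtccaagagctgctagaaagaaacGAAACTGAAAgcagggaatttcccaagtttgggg
CXCL10 (chr4:76023685-76023742, minus strand): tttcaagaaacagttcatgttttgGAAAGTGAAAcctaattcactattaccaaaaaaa
Over all members with a window, the core was present in 6 of 11 genes that were above the median on all arrays (54.5%) and in 11 of 16 that were above it on none (68.8%).

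The targeted gene checked the labels. TCF7L1, a repressor of Wnt target genes, had signals of 389, 346 and 352 in the TCF7L1 siRNA samples, 1709, 1703 and 1625 in the non-silencing samples and 1473, 1842 and 1667 in the untreated samples, with no overlap between the TCF7L1 siRNA group and the others and a log2 difference of -2.14 from no siRNA (SE 0.10, adjusted p = 8.05e-06). The medians of the 9 arrays ranged between 104 and 113, and 25th percentiles between 28.0 and 34.6. All 11 measured markers of pluripotent cells were above the array median on all 9 arrays, and none of 13 haematopoietic markers was. Of these 13, 11 were above it on no array. CD14 was above it on 3 arrays, with means of 125 with the TCF7L1 siRNA, 119 with the non-silencing siRNA and 101 without siRNA. Of 4 endothelial markers, CDH5 and TEK were above it on all 9 arrays. PTPRC, which encodes the leukocyte antigen CD45, had a signal of 11.7 ± 2.90 with the TCF7L1 siRNA, 12.3 ± 1.48 with the non-silencing siRNA and 13.3 ± 1.15 without siRNA (mean ± SD, n = 3 each). Of 9 fibroblast markers, THY1, COL1A2 and COL1A1 were above the median on all arrays.

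Part of the pathway was above the middle of the array in H9 cells and part was near the bottom. The table holds no detection call, so each signal was placed against the median of all probe sets on its own array, which is a position and not a limit of detection. By that measure 14 of the 40 member probe sets (35%) were above the median on all 9 arrays, against 46.3% of all probe sets. A further 5 were above it on some arrays and 21 on none. The 14 were MAVS, TBK1, IRF3, IRF9, STAT2, EIF2AK2, ADAR, IFI6, ISG15, ISG20, BST2, IFITM1 and both USP18 probe sets. At the other end, 8 probe sets stayed at or below the 25th percentile on all 9 arrays. The filter on low values kept 31 of the 40 member probe sets (77.5%), against 78.3% of all. It left out TLR7, TLR8, IFNB1, OAS3, IFIT2, IFIT3, IFI44, RSAD2 and CXCL10, which were tested in a fit without the filter. The number above the median on all 3 arrays of a group was 14 with the TCF7L1 siRNA, 15 with the non-silencing siRNA and 18 without siRNA. DDX58, IFNAR1, IFNAR2 and MX2 account for the 4 that were counted without siRNA and not with the TCF7L1 siRNA. Signals of different probe sets have no common scale, and each is compared here only between samples.

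**Figure D1:**
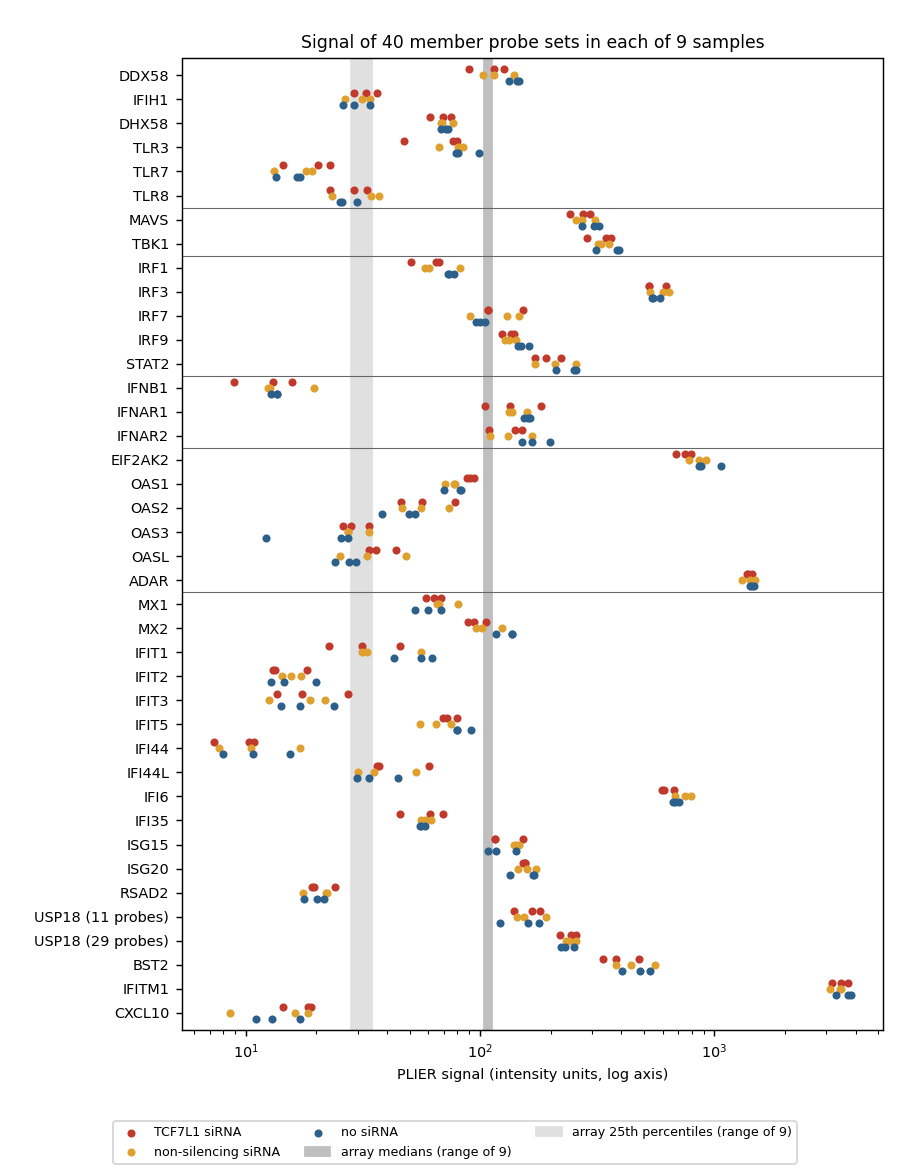
Signal of each of the 40 member probe sets (rows, ordered by role and separated by lines) in each of the 9 samples on a log axis in intensity units, with 1 point per sample coloured by group. Grey bands give the range of the 9 array medians (104 to 113) and of the 9 array 25th percentiles (28.0 to 34.6). Points of the TCF7L1 siRNA and the non-silencing siRNA overlap for every probe set except OAS1 and IFI6.

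No member passed the test in any comparison. For the siRNA against TCF7L1 set against the non-silencing siRNA, 0 of the 40 member probe sets reached an adjusted p under 0.05 in limma, where 0.0263% of all 22784 tested probe sets did. Without the filter, in the fit that covers the dim members, it was 0 of 40 again, against 0.0172% of all 29096 probe sets. At an unadjusted p under 0.05, OAS1 was higher and IFI6 lower, each 2.5% of the members, against 1.2% and 1.27% of all probe sets in the fit without the filter. The same 2 were the only members whose groups did not overlap, against 2.13% of all probe sets higher and 3.16% lower. The median log2 difference of the members was -0.03, against -0.003 over all probe sets, and 13 of the 40 were above 0 (32.5%), against 48.6% of all. These samples are bulk RNA, in which fewer cells expressing a gene and less of its RNA per cell cannot be told apart.

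The non-silencing siRNA against no siRNA asks whether transfection of an siRNA as such moved these genes. Here 0 of 40 members passed, and 0% of all probe sets did, with or without the filter. At an unadjusted p under 0.05 no member was higher and 2, MX2 and IFIT5, were lower (5%), against 1.63% of all probe sets higher and 1.26% lower. IRF9 and IFIT5 were lower with no overlap between the groups, again 5% of the members, against 4.17% of all probe sets. No member was higher without overlap, against 3.31% of all. The median difference was 0.01 and 22 of 40 members were above 0 (55%), against a median of -0.001 and 49.6% over all probe sets. Without replicate 3 of the non-silencing siRNA that median was -0.04.

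Cells with the TCF7L1 siRNA were also set against cells without siRNA, a comparison that shares its samples with both comparisons above. Again 0 of 40 members passed, where 0.0527% of all tested probe sets did (0.0412% without the filter), and the smallest adjusted p of a member was 0.581, for MX2. At an unadjusted p under 0.05, DDX58, EIF2AK2, MX2 and IFIT1 were lower (10% of the members) and none was higher, against 3.97% and 2.91% of all probe sets. Groups did not overlap for 3 members that were higher, IRF7, OAS1 and OASL (7.5%), against 6.75% of all probe sets. They did not overlap for 6 that were lower, DDX58, IRF1, IRF9, IFNAR2, EIF2AK2 and MX2 (15%), against 6.96%. The median difference was -0.04 and 17 of 40 members were above 0 (42.5%), against -0.003 and 49.3% over all probe sets.

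The mean of both siRNA groups against no siRNA uses all 9 samples and was the most precise of the comparisons. It called 0 of 40 members, and 0.00878% of all tested probe sets (0.00344% without the filter). At an unadjusted p under 0.05 none was higher and 6 were lower, namely DDX58, IFNAR2, EIF2AK2, MX2, IFIT1 and IFIT5 (15%), against 3.15% of all probe sets higher and 3.31% lower. IRF9 was the only member without overlap between the groups, and it was lower, against 1.37% of all probe sets. The median difference was -0.004, and 20 of the 40 members were above 0 (50%), against -0.003 and 49.2% over all probe sets. Members lay on both sides of 0: the differences furthest below it were -0.43 for IFIT1, -0.33 for the receptor chain IFNAR2 and -0.31 for MX2, and those furthest above it were 0.29 for OAS3, 0.28 for OASL and 0.25 for OAS2. The value of OAS3 was 0.09 without replicate 3 of the untreated samples.

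The sensors come first in the pathway. DDX58 (array position chr9:32455300-32526322 on build GRCh37, as the array's annotation names it) had signals of 126, 89.6 and 115 in the TCF7L1 siRNA samples, 139.6, 114 and 103 in the non-silencing samples and 146, 133 and 144 in the untreated samples. All TCF7L1 siRNA samples were below the untreated ones, and 1 non-silencing sample fell among the untreated. Its log2 difference was -0.10 (SE 0.13, adjusted p = 1) between the siRNAs and -0.33 (SE 0.13, adjusted p = 0.662) between the TCF7L1 siRNA and no siRNA. Without replicate 2 of the TCF7L1 siRNA the second was -0.20, and without replicate 1 of the non-silencing siRNA the first was 0.01. IFIH1 (chr2:163123589-163175194) gave 32.6, 36.1 and 29.1 after the TCF7L1 siRNA, 31.3, 33.7 and 26.5 after the non-silencing siRNA and 34.0, 28.9 and 25.9 in untreated cells. All of these lie around the 25th percentile of the arrays, and the 3 groups overlap. For the endosomal sensor TLR3 the signals were 76.3, 47.3 and 79.9 in the TCF7L1 siRNA samples, 84.4, 80.0 and 66.9 in the non-silencing samples and 80.7, 78.7 and 98.9 in the untreated samples. The lowest value, 47.3, came from a TCF7L1 siRNA sample and the highest from a sample without siRNA, with a difference of -0.30 (SE 0.16, adjusted p = 0.662) between those groups, and of -0.11 without that lowest sample, replicate 2 of the TCF7L1 siRNA. DHX58, a regulator of the other cytoplasmic sensors, had means between 68.6 and 71.3 in the 3 groups, below the median on every array. TLR7 averaged 19.2 ± 4.35 with the TCF7L1 siRNA, 16.8 ± 3.16 with the non-silencing siRNA and 15.7 ± 1.94 without siRNA (mean ± SD, n = 3 each). TLR8 averaged 28.2 ± 5.07 with the TCF7L1 siRNA, 31.5 ± 7.25 with the non-silencing siRNA and 26.9 ± 2.44 without siRNA. None of the 6 sensors was above the array median on all 9 arrays.

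The adaptor and the kinase that carry the signal onward were both in the upper part of the array in every sample. MAVS averaged 270.3 ± 26.4 with the TCF7L1 siRNA, 279 ± 27.3 with the non-silencing siRNA and 300.4 ± 25.9 without siRNA. TBK1, the kinase that phosphorylates IRF3, averaged 331 ± 40.2 in TCF7L1 siRNA cells, 332 ± 18.5 in non-silencing siRNA cells and 362 ± 43.9 in untreated cells. The groups overlapped for both. Of the transcription factors, IRF3 was high in all samples, with 555 ± 54.1 in TCF7L1 siRNA cells, 590.4 ± 55.8 in non-silencing siRNA cells and 559 ± 24.7 in untreated cells. IRF9, the DNA-binding part of the interferon-activated complex, had signals of 139.9, 124 and 135 in the TCF7L1 siRNA samples, 132, 142 and 127 in the non-silencing samples and 145, 149 and 161 in the untreated samples. Every siRNA-treated sample was below every untreated sample, and the log2 difference was -0.17 for both siRNAs together (SE 0.08, unadjusted p = 0.0562, adjusted p = 0.675). STAT2, the partner of IRF9, gave 221, 171 and 190.3 after the TCF7L1 siRNA, 256, 209 and 172 after the non-silencing siRNA and 257, 252 and 209.8 in untreated cells. Those groups overlapped, with a difference of -0.28 between the TCF7L1 siRNA and no siRNA (SE 0.15, adjusted p = 0.662). IRF7, which amplifies interferon production and is itself interferon-induced, had signals of 107, 153 and 108 in the TCF7L1 siRNA samples, 90.5, 129.7 and 146 in the non-silencing samples and 99.5, 96.2 and 105 in the untreated samples. Both siRNA groups spread more widely than the untreated samples, and the highest values fell on replicate 2 of the TCF7L1 siRNA and replicate 3 of the non-silencing siRNA. IRF1, induced by interferon and by inflammatory signals, had signals of 64.7, 50.7 and 66.4 after the TCF7L1 siRNA, 82.2, 60.5 and 58.3 after the non-silencing siRNA and 72.7, 77.7 and 73.3 in untreated cells. The TCF7L1 siRNA samples were all below the untreated ones, with a difference of -0.25 (SE 0.13, adjusted p = 0.662), while the non-silencing samples spanned both. Without replicate 2 of the TCF7L1 siRNA it was -0.15.

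Interferon beta itself was at the bottom of the array in every sample. IFNB1 (chr9:21077104-21077962) had signals of 8.88, 15.7 and 13.1 in the TCF7L1 siRNA samples, 12.4, 12.6 and 19.5 in the non-silencing samples and 13.6, 13.6 and 12.8 in the untreated samples, all below the 25th percentile of their arrays. The highest was a non-silencing siRNA sample and the lowest a TCF7L1 siRNA sample, and the groups overlapped. Set against the untreated mean on the fitted scale, a signal of 13.3, the upper 95% bounds reached a signal of 18.1 for the TCF7L1 siRNA and 20.8 for the non-silencing siRNA. Both receptor chains were near or above the array median. IFNAR2 had signals of 150.1, 109 and 140.1 after the TCF7L1 siRNA, 166, 132 and 109.6 after the non-silencing siRNA and 199, 166 and 151 in untreated cells. The non-silencing and untreated groups overlapped, and the TCF7L1 siRNA samples were all below the untreated ones. Its difference was -0.34 for the TCF7L1 siRNA and -0.32 for the non-silencing siRNA, each against no siRNA (SE 0.16 for both, adjusted p = 0.662 and 0.927). Without replicate 2 of the TCF7L1 siRNA the first was -0.22, and without replicate 3 of the non-silencing siRNA the second was -0.19. IFNAR1 gave 133, 104 and 182 in the TCF7L1 siRNA samples, 158, 137 and 133 in the non-silencing samples and 163, 154 and 160.0 in the untreated samples, with overlapping groups.

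Of the 6 genes for dsRNA-binding effectors and their relatives, EIF2AK2 and ADAR were above the array median throughout and the OAS family below it. EIF2AK2 (chr2:37326353-37551680), the kinase PKR that halts translation when it binds dsRNA, had signals of 749.9, 686 and 794 in the TCF7L1 siRNA samples, 920.0, 859 and 778 in the non-silencing samples and 1067, 861 and 876 in the untreated samples. All TCF7L1 siRNA samples were below all untreated ones, and the non-silencing samples overlapped both groups. The difference from no siRNA was -0.32 for the TCF7L1 siRNA (SE 0.11, unadjusted p = 0.0161, adjusted p = 0.651) and -0.13 for the non-silencing siRNA, the second being -0.03 without replicate 1 of the untreated samples. ADAR, which edits adenosines in dsRNA, averaged 1403 ± 35.6 in TCF7L1 siRNA cells, 1404 ± 88.8 in non-silencing siRNA cells and 1448 ± 28.0 in untreated cells, and its groups overlapped. The oligoadenylate synthetases make the messenger that activates the nuclease RNase L. OAS1 (chr12:113344739-113369991) had signals of 88.3, 94.0 and 90.1 after the TCF7L1 siRNA, 77.6, 71.1 and 77.8 after the non-silencing siRNA and 70.4, 82.2 and 83.1 in untreated cells. Those of the TCF7L1 siRNA were all above the others, by 0.22 against the non-silencing siRNA (SE 0.09, unadjusted p = 0.0316, adjusted p = 1), and stayed below the array median. OAS2 gave 45.8, 77.8 and 56.6 in the TCF7L1 siRNA samples, 46.2, 55.6 and 73.6 in the non-silencing samples and 52.9, 38.1 and 49.8 in the untreated samples. Replicate 2 of the TCF7L1 siRNA and replicate 3 of the non-silencing siRNA were the highest. OAS3, one of the dim probe sets, had signals of 28.1, 33.4 and 25.9 in the TCF7L1 siRNA samples, 27.2, 27.2 and 33.5 in the non-silencing samples and 27.3, 25.6 and 12.1 in the untreated samples. A single untreated sample at 12.1 was far below the rest. OASL, a related protein without synthetase activity, gave 33.7, 43.6 and 35.8 after the TCF7L1 siRNA, 25.3, 33.0 and 48.4 after the non-silencing siRNA and 29.6, 27.5 and 23.9 in untreated cells. All TCF7L1 siRNA samples exceeded the untreated ones, by 0.32 (SE 0.15, unadjusted p = 0.0573, adjusted p = 0.662), and the highest value was a non-silencing sample.

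The other interferon-induced genes include antiviral effectors with a high signal in untreated cells. IFITM1 (chr11:313853-315272), a membrane protein that blocks virus entry, had signals of 3454, 3159 and 3730.1 in the TCF7L1 siRNA samples, 3458, 3127 and 3429.9 in the non-silencing samples and 3819, 3298 and 3696 in the untreated samples. These were the only member signals above the 95th percentile of the probe sets labelled as negative controls in all untreated samples, and the groups overlapped. IFI6, an interferon-induced mitochondrial protein, gave 669.8, 599 and 611 in the TCF7L1 siRNA samples, 795, 746 and 677 in the non-silencing samples and 667, 709 and 677 in the untreated samples. Every TCF7L1 siRNA sample was below every non-silencing sample, with a difference of -0.23 (SE 0.09, unadjusted p = 0.0314, adjusted p = 1), and the untreated samples overlapped both. BST2, or tetherin, which holds budding virus at the cell surface, had signals of 474, 381 and 336 after the TCF7L1 siRNA, 558, 441 and 382 after the non-silencing siRNA and 533, 479.8 and 402 in untreated cells. Its groups overlapped throughout. The ubiquitin-like modifier ISG15 (chr1:948803-949920) gave 116, 152 and 116 in the TCF7L1 siRNA samples, 139.7, 142 and 147 in the non-silencing samples and 143, 108 and 117 in the untreated samples, and its groups overlapped too. ISG20, an exonuclease, averaged 154 ± 2.10 with the TCF7L1 siRNA, 159 ± 14.1 with the non-silencing siRNA and 157 ± 20.5 without siRNA. USP18, which removes ISG15 from proteins, had a probe set of 11 probes at chr22:18632758-18660164 and one of 29 probes, 25 of them matched directly to the transcript, at chr22:20717911-20782479 on the opposite strand. Both are annotated with the same transcript although they lie far apart, so what the second measures is uncertain. The first averaged 162 ± 20.3 with the TCF7L1 siRNA, 163 ± 24.7 with the non-silencing siRNA and 153 ± 28.4 without siRNA. The second averaged 239 ± 18.3 after the TCF7L1 siRNA, 243 ± 11.7 after the non-silencing siRNA and 234 ± 15.1 in untreated cells.

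Most genes commonly used to read out an interferon response were below the array median. IFIT1 (chr10:91152303-91163745), which binds viral RNA ends, had signals of 45.5, 22.7 and 31.3 in the TCF7L1 siRNA samples, 56.0, 32.8 and 31.2 in the non-silencing samples and 62.2, 56.0 and 43.0 in the untreated samples. Untreated samples were mostly the highest, but one sample of each siRNA group reached into their range. Its difference from no siRNA was -0.52 with the TCF7L1 siRNA (SE 0.20, unadjusted p = 0.0237, adjusted p = 0.662), and it was -0.33 with the non-silencing siRNA (SE 0.20, adjusted p = 0.927), or -0.53 without replicate 1 of that siRNA. IFIT5, a related protein, gave 79.7, 69.4 and 72.1 after the TCF7L1 siRNA, 75.3, 64.9 and 55.3 after the non-silencing siRNA and 79.7, 91.6 and 79.4 in untreated cells. The non-silencing samples were all below the untreated ones, with a difference of -0.30 (SE 0.11, unadjusted p = 0.0197, adjusted p = 0.927), and 1 TCF7L1 siRNA sample was level with the lower untreated ones. MX1 (chr21:42798144-42831141), a dynamin-like GTPase that blocks viruses, had signals of 67.9, 63.6 and 58.7 in the TCF7L1 siRNA samples, 65.2, 80.7 and 66.9 in the non-silencing samples and 68.1, 52.6 and 60.0 in the untreated samples, with all groups overlapping. MX2, its neighbour on chromosome 21, gave 106, 89.1 and 94.4 after the TCF7L1 siRNA, 123, 102 and 95.9 after the non-silencing siRNA and 136, 137 and 116 in untreated cells. All TCF7L1 siRNA samples were below all untreated ones, with a difference of -0.38 (SE 0.11, unadjusted p = 0.00638, adjusted p = 0.581), and 1 non-silencing sample fell among the untreated. IFIT2, IFIT3, IFI44, RSAD2 and CXCL10 were left out by the filter and had group means between 9.46 and 20.9. IFIT2 and IFIT3 are relatives of IFIT1, and RSAD2 encodes the antiviral enzyme viperin. Their differences between the TCF7L1 siRNA and no siRNA lay between -0.10 for IFI44 and 0.17 for CXCL10, and were 0.01 for IFI44 without replicate 1 and 0.10 for CXCL10 without replicate 3 of the untreated samples. The interferon-inducible chemokine CXCL10 averaged 17.2 ± 2.53 with the TCF7L1 siRNA, 14.4 ± 5.17 with the non-silencing siRNA and 13.7 ± 3.03 without siRNA. IFI44L and IFI35 were below the array median in all samples, with differences between the TCF7L1 siRNA and no siRNA of 0.21 for IFI44L and 0.03 for IFI35. Without replicate 2 of the TCF7L1 siRNA these were 0.03 for IFI44L and -0.07 for IFI35.

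Because a gene that misses the test may still have risen, the 95% intervals set the size of rise in array signal that these day 3 samples allow. The upper bound was under a 2-fold rise for all 40 member probe sets in all 4 comparisons, on the log2(signal + 16) scale, against 99.8% of all probe sets between the siRNAs, 99.6% for either siRNA against none and 99.7% for both together. It was under a 1.5-fold rise for 40 of 40 members between the siRNAs, 37 for the non-silencing siRNA against none, 35 for the TCF7L1 siRNA against none and 40 for both together. Over all probe sets the share was 97.1% between the siRNAs, 92.9% for the non-silencing siRNA against none, 91.3% for the TCF7L1 siRNA against none and 95% for both together. The highest upper bound was 1.447-fold between the siRNAs (IFI44L), 1.546-fold for the non-silencing siRNA against none (OAS3), 1.566-fold for the TCF7L1 siRNA against none (OASL) and 1.496-fold for both together (OAS3). For dim genes the added 16 understates folds: with 1 added instead, OAS3 alone had an upper bound above 2-fold, at most 2.16-fold, and 30 to 34 members stayed under 1.5-fold. Any background left in the signals would shrink the folds of dim genes with either offset, so the bounds are not bounds on RNA. A rise that ended before day 3 would not be seen.

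**Figure D2:**
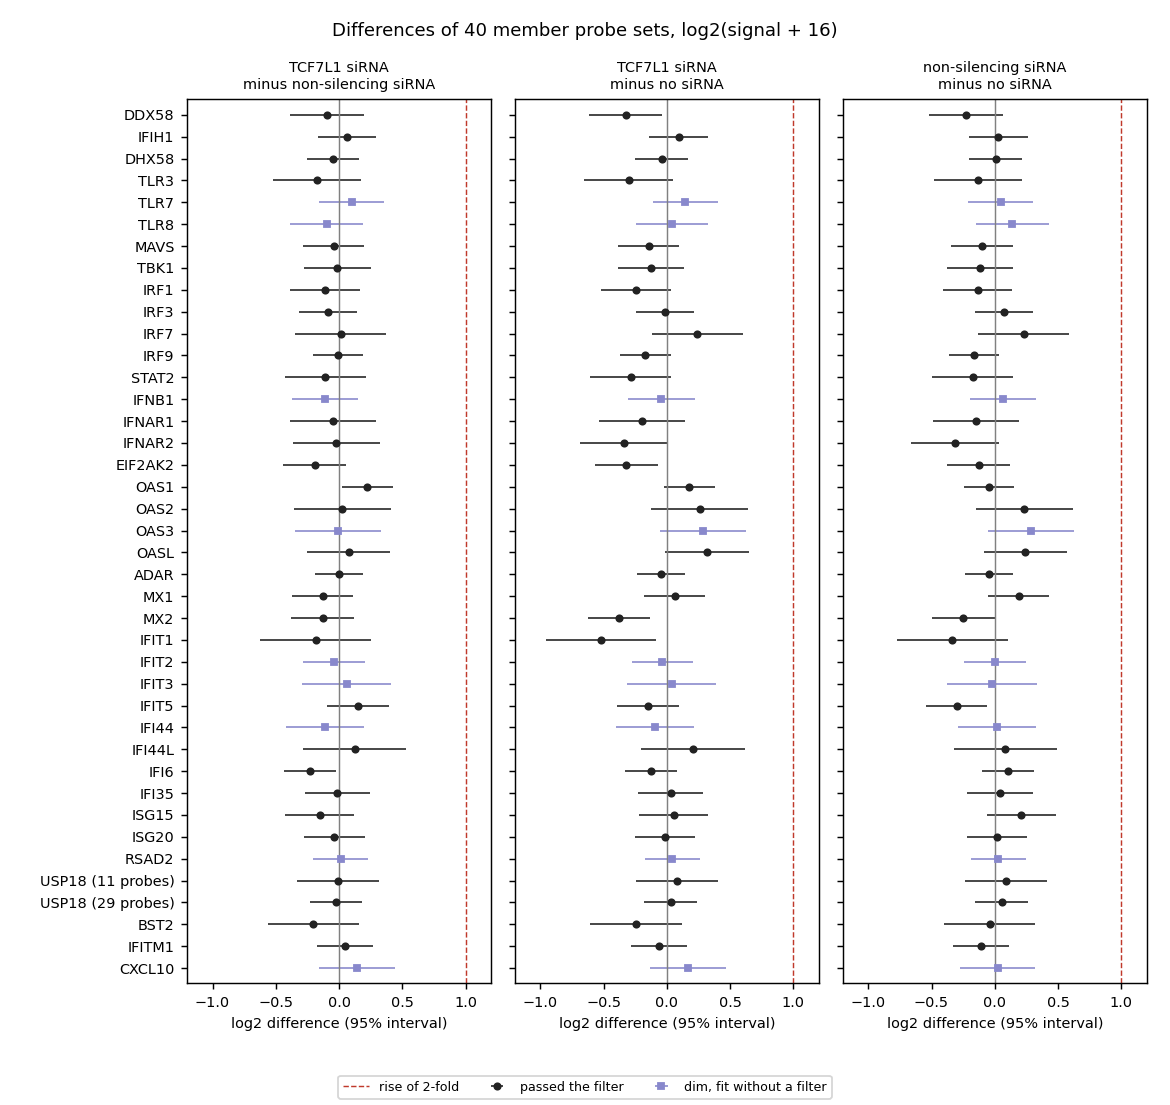
Log2 difference of each member probe set (rows) in 3 comparisons, with bars for the 95% interval from limma over 9 arrays. Black circles passed the filter on low values, violet squares are dim probe sets from the fit without it, and the dashed line marks a 2-fold rise, which no interval reaches.

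On the 2 arrays with the narrowest spread of signals, members moved as probe sets of like brightness did. The interquartile range of log2 signals was narrowest in replicate 2 of the TCF7L1 siRNA (2.78) and replicate 3 of the non-silencing siRNA (2.79), and widest in replicate 1 of the non-silencing siRNA (3.17). Of the 21 members below the median on all arrays, 11 had their highest signal on one of the 2 narrow arrays (52.4%), against 47.1% of all 12965 probe sets of that kind. Of the 14 above the median on all arrays, 8 had their lowest signal there (57.1%), against 57.2% of all 13482 such probe sets. In both siRNA groups the highest value of IRF7, OAS2, OASL and IFI44L and the lowest of DDX58, STAT2 and EIF2AK2 came from these arrays. On other arrays the 21 members below the median did not follow the spread. Their mean deviation was highest, at 0.06, in replicate 1 of the untreated samples, whose interquartile range was 3.03. It was -0.05 in replicate 3 of the TCF7L1 siRNA and -0.03 in replicate 2 of the non-silencing siRNA. All probe sets of that kind were at 0.03 on both.

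With the array's spread as a covariate in the fit, no member passed after adjustment either. Between the siRNAs, 2 members were higher and 1 lower at an unadjusted p under 0.05 in that fit (5% and 2.5%), against 2.66% and 3.07% of all probe sets. They were OAS1 at 0.22 (0.22 without the covariate), IFIT5 at 0.16 (0.15) and IFI6 at -0.22 (-0.23). For the non-silencing siRNA against none it was 1 higher, IFI6 at 0.17, and 1 lower, IFIT5 at -0.20 (2.5% each), against 1.63% and 1.77%. For the TCF7L1 siRNA against none it was 0 higher and 2 lower (0% and 5%), against 2.88% and 3.52%. For both together it was 0 higher and 1 lower (0% and 2.5%), against 2.21% and 2.54%. Several differences between the TCF7L1 siRNA and no siRNA were smaller with the covariate: -0.29 for IFIT1 (-0.52 without it), -0.18 for DDX58 (-0.33), -0.17 for IFNAR2 (-0.34), -0.16 for TLR3 (-0.30), -0.12 for STAT2 (-0.28), -0.11 for IRF1 (-0.25) and 0.14 for OASL (0.32). MX2 at -0.28 (-0.38) and EIF2AK2 at -0.27 (-0.32) moved by less than 1.5 times. The spread itself differed with the groups. Its interquartile range was 3.03, 3.16 and 3.09 in the untreated samples. It was 3.11, 2.78 and 2.97 with the TCF7L1 siRNA and 3.17, 2.95 and 2.79 with the non-silencing siRNA. The covariate can therefore also take up part of a difference between groups, and the 2 cannot be told apart here.

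**Figure D3:**
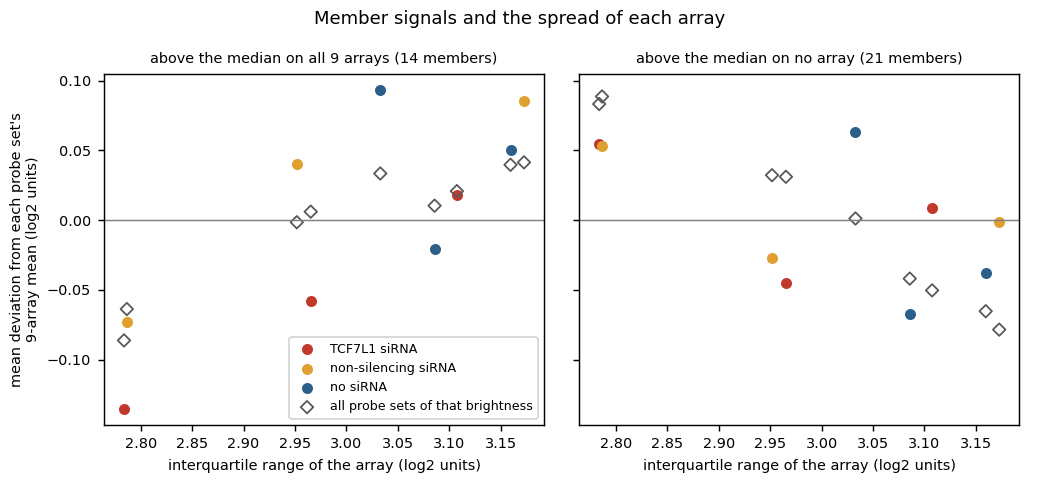
Mean deviation of member signals from each probe set's mean over 9 arrays (vertical axis, log2 units) against the interquartile range of the array (horizontal axis, log2 units), with 1 point per sample coloured by group, for 14 bright (left) and 21 dim (right) member probe sets. Open diamonds give the same mean over all probe sets of that brightness. On the 2 narrowest arrays the bright members lie at -0.14 and -0.07 (all bright probe sets at -0.09 and -0.06) and the dim members at 0.05 on both (all dim probe sets at 0.08 and 0.09). The dim members lie highest, at 0.06, in replicate 1 of the untreated samples (all dim probe sets at 0.001).

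Other genes of the pathway also gave no call. None of 39 further interferon-induced genes passed in any of the 4 comparisons, in the fit with or without the filter, nor did any of 26 further sensing and signalling genes, 19 interferon genes, 20 genes induced by NF-kB or 8 negative regulators (the probe set of highest mean signal for each gene). TRIM22, an antiviral ubiquitin ligase, differed by -0.38 for the TCF7L1 siRNA and -0.36 for the non-silencing siRNA, each against none (SE 0.13, adjusted p = 0.651 and 0.927), while its other probe set differed by -0.01 in both. ICAM1, an adhesion molecule induced by NF-kB, differed by -0.44 between the TCF7L1 siRNA and none (SE 0.17, adjusted p = 0.662), or by -0.27 without replicate 2 of the TCF7L1 siRNA, and AIM2, a sensor of cytoplasmic DNA, by -0.24 (SE 0.09, adjusted p = 0.662). All 8 negative regulators were above the array median on all 9 arrays. SOCS1, which inhibits signalling from the interferon receptor, gave 362, 327 and 357 after the TCF7L1 siRNA, 437, 407 and 403 after the non-silencing siRNA and 413, 467 and 483 in untreated cells. The TCF7L1 siRNA samples were below all others, with a difference of -0.37 from untreated cells (SE 0.10, adjusted p = 0.478). SOCS2 went the other way, by 0.28 from untreated cells (SE 0.11, adjusted p = 0.662). CYLD was higher by 0.30 between the siRNAs (SE 0.12) and did not pass after adjustment. Its signals were 263, 250 and 337 after the TCF7L1 siRNA and 245, 235 and 201 after the non-silencing siRNA. For the TCF7L1 siRNA against none, 3 of the 8 negative regulators were above 0. ZBP1 and IFNA8 were each higher by 0.28 for both siRNAs against none (SE 0.14 and 0.12, adjusted p = 0.675 for both). The 2 highest signals of each fell on the 2 narrow arrays. Among the interferon genes, 12 of 19 stayed at or below the 25th percentile on all arrays, and IL28B, an interferon lambda, was alone above the median on all 9. IL28B averaged 345 ± 104 with the TCF7L1 siRNA, 369.5 ± 79.5 with the non-silencing siRNA and 284 ± 14.6 without siRNA. Its 2 highest signals fell on the 2 narrow arrays. Of all probe sets above the median on all 9 arrays, 12.1% had their highest signal on 1 of these arrays and 57.2% their lowest. IL28A, a near-identical copy whose RNA the array may not separate from that of IL28B, had a difference of 0.40 between the non-silencing siRNA and none (SE 0.19, adjusted p = 0.927), or 0.60 without replicate 1 of that siRNA. The median log2 difference of the 39 further interferon-induced genes was -0.06 between the siRNAs, -0.03 for the non-silencing siRNA against none and -0.09 for the TCF7L1 siRNA against none. That of the interferon genes was 0.02 between the siRNAs, 0.07 for the non-silencing siRNA against none and 0.14 for the TCF7L1 siRNA against none. For the non-silencing siRNA against none, 16 of the 19 interferon genes were above 0, against 49.6% of all probe sets. For the TCF7L1 siRNA against none, 17 of the 19 were, against 49.3%. Only 6 of the 19 passed the filter on low values. Of the 39 further interferon-induced genes, 15 and 14 were above 0 in these 2 comparisons. In the comparison of the TCF7L1 siRNA with none the median was -0.07 for the sensing and signalling genes, -0.04 for the genes induced by NF-kB and -0.05 for the negative regulators. The part of the array spread in these medians and counts was not tested. The shares over all probe sets cover every brightness, while most interferon genes were dim. All probe sets below the median on every array had mean log2 deviations of 0.001, -0.07 and -0.04 in the untreated samples. These were -0.05, 0.08 and 0.03 with the TCF7L1 siRNA and -0.08, 0.03 and 0.09 with the non-silencing siRNA.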

How the data were processed

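The authors deposited 1 table of gene-level intensity signals per probe set and array, made per the submitters' processing notes with Affymetrix Expression Console 1.1.1 and PLIER 2.0. Background and between-array steps are not stated in those notes or the labels, so any compression of low or high signals stays in the values. The second deposited table holds the same values. After 4201 control probe sets were left out, log2(signal + 16) was fitted in limma 3.58.1 (R 4.3.3) with 1 mean per group over 9 arrays. The 22784 probe sets above the 25th percentile of their array on at least 3 arrays were tested, all 29096 in a fit without that filter, with Benjamini-Hochberg adjustment over all probe sets and a threshold of 0.05. Intervals are 95% and carry 6 residual and 4.89 prior degrees of freedom. The fit was also run on simulated data, drawn as independent normal values from its own means and spread. For both siRNAs against none it called 77.9% of added 1.5-fold rises and 99.4% of 2-fold rises. The simulated arrays did not differ in spread as the real ones do, so these shares may not hold for the real arrays. Each simulated set also held many added rises at once, which loosens the adjusted threshold, while the real comparison called 2 probe sets. A lone 1.5-fold rise would therefore be called less often than these shares say. The dim members that the filter left out were not part of the simulation. The number of arrays limits the precision, with a median SE of 0.12 between 2 groups.

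The background limit first intended came from intronic control probe sets, with the array median planned in its place if that label was absent. The array median was used, because the table labels 2904 probe sets only as negative controls. Genes given in every sample were 10 sensors and classical interferon-induced genes whatever their values, and the 12 further members of smallest unadjusted p in any comparison. Members, lists and this rule were chosen with earlier results of these data known. Symbols are those of the array's annotation, and DDX58 is RIGI in current nomenclature. The values of 1 further gene of the wider lists are not reported here.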

Additional observations from a re-analysis of the deposited data

How the results depend on the processing

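No member passed under any of the 71 alternatives to the 4 comparisons, and no dim member did in the separate alternatives to the fit without the filter. Of 377 alternatives for 22 member results none passed the threshold. The smallest adjusted p of a member was 0.209, for IFIT1 and MX2 in both siRNAs against none without replicate 1 of the non-silencing siRNA. Counts over all probe sets moved. Between the siRNAs, 6 passed, 11 with the replicate number as a block and 25 with array spread as a covariate. For the TCF7L1 siRNA against none, 12 passed, 20 with the block, 20 with the covariate, 5 without the 2 narrowest arrays, and 3 to 15 with 1 array left out. For both siRNAs against none, 2 passed, 6 with the block, 1 with an offset of 1, 1 without the filter, 1 without the 2 narrowest arrays, and 0 to 2 with 1 array left out. The member median for the non-silencing siRNA against none, 0.01, ranged between -0.0390 and 0.0529 with 1 array left out, and was -0.0390 without the 2 narrowest arrays. The cause was not tested. The replicate numbers were not taken to pair samples: correlations of same-numbered arrays ran between -0.257 and 0.68.

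The count of 18 members above the array median on all arrays without siRNA became 1 when the limit was the 95th percentile of the negative-control probe sets and was again 18 at their 75th. Both limits, and the fit without the 2 narrowest arrays, were chosen after seeing the data. The intended limit from intronic probe sets was not run, since no probe set carries that label. Signal over background limits the dim members, for which a fold depends on the offset.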
